A study of Caenorhabditis elegans with 46 samples.

Results

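The genes described here encode steps of mitochondrial fatty acid oxidation in the nematode Caenorhabditis elegans: the carnitine palmitoyltransferases cpt-1 to cpt-5, the acyl-CoA dehydrogenases acdh-7, acdh-10 and acdh-12, the enoyl-CoA hydratase ech-6 and the hydroxyacyl-CoA dehydrogenase hacd-1. They were taken by name, and each was read from the brightest probe set that carries its symbol alone. Of these 10 genes, 9 had such a probe set among the 22548 tested, and acdh-10 was not analysed here. RNA of whole worms was hybridised to 46 Affymetrix arrays, 1 per sample, and the title of the study links fasting at intervals to lifespan through JNK and AP-1. In the time course, wild-type N2 worms grown with food to day 2 of adulthood were fasted for 3, 6, 9, 12, 18, 24, 36 or 48 h, and fed worms were taken at 0, 24 and 48 h, with 2 arrays per group. In the mutant set, fasted and fed day 4 adults were measured with 3 arrays per group in 4 genotypes: mutants of kgb-1 (a JNK family kinase), of jun-1 (a transcription factor of the AP-1 type), of daf-16 (the FOXO factor of insulin signalling), and N2. All 4 share the N2 strain background. The labels name neither the alleles nor the fasting time of the mutant set. The design text gives 2 independent experiments for the time course, against 3 for the mutant set.

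Fatty acids that enter the mitochondrial route are first joined to coenzyme A. They are moved across the mitochondrial membranes as carnitine esters by a pair of carnitine palmitoyltransferases, and then shortened by a repeated cycle of dehydrogenation, hydration, a second oxidation and thiolytic cleavage. In worms the intestine and hypodermis hold most of the stored fat, and fatty acid oxidation is a main source of energy when food is withdrawn. The nuclear receptor NHR-49 is known as a regulator of such genes in fasted worms.

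All levels below are deposited intensities to 3 significant digits, on a linear scale made by the authors with PLIER. All changes are differences of log2(intensity + 16) after quantile normalization within each set, with the standard error of a limma fit. The adjusted p stands for limma's test with Benjamini-Hochberg adjustment over all probe sets. Adding 16 makes the changes of dim probe sets smaller, and cpt-3, cpt-4 and cpt-5 are dim, with means of 76.6, 87.6 and 58 over the 46 arrays. Fed arrays of the time course had medians of 60.1 to 66.9, and fasted ones 64.4 to 84. The lowest correlation between an array and its replicates was 0.986 in the time course, against 0.947 in the other set. The jun-1 probe set averaged 19.2 ± 3.85 in fed jun-1 mutants and 705 ± 99.1 in fed N2 worms (SD, n = 3 each). It was thus far lower in the fed arrays labelled jun-1. The daf-16 probe set averaged 413 ± 96.1 in fed daf-16 and 559 ± 36.6 in fed N2 worms (adjusted p = 0.64), and 367 ± 35.8 in fasted daf-16 and 624 ± 82.2 in fasted N2 worms (-0.60 ± 0.17, adjusted p = 0.0747), lower in the mutants but not called. The kgb-1 probe set, with 187 ± 33.3 in fed kgb-1 and 174 ± 17.7 in fed N2 worms, was not lower in its mutants. Which part of either gene the mutants lack is not given, so these do not settle the labels. The probe sets used for cpt-1, cpt-4, acdh-7, acdh-12 and ech-6 carry the suffix by which Affymetrix marks sets that can match more than 1 transcript, and what else they match was not tested. In RNA of whole worms, fewer cells of a type and less RNA per cell cannot be told apart. Where arrays of groups are said below not to overlap, the share of all probe sets that separate so was not counted. Such separation describes the arrays and is no test.

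Fasting split the family. In the time course cpt-3, acdh-7 and hacd-1 ended above fed worms of the same age, and ech-6 and cpt-5 ended below them. The level of cpt-4 was above fed worms early and below them at 48 h, while cpt-1, cpt-2 and acdh-12 were called at no time in this fit with quantile normalization. Of the 9 genes, 1 rose and none fell after 3 h, where 1.12% of all probe sets were called in either direction. After 6 h 1 rose and 1 fell, where 2.20% were called. After 9 h 3 rose and 1 fell (9.65% of all called), and after 12 h the numbers were the same (16.1%). After 18 h 4 rose and 2 fell (36.6%), after 24 h 3 rose and 2 fell (32.2%), after 36 h 4 rose and 2 fell (40.3%), and after 48 h 3 rose and 3 fell (30.1%). At 24 and 48 h the fed worms were of the same age, while every other time was set against the same pair of fed arrays at 0 h, so those comparisons share their reference. The members' median change at 48 h was -0.17, against -0.02 over all probe sets. With arrays centred on their median in place of quantile normalization, the median of all probe sets moved to between -0.14 and -0.27 from 9 h on (-0.27 at 36 h, -0.23 at 48 h), and the split became 4 risen and 4 fallen at 36 h. That centring gave 1 risen and 1 fallen at 3 h, and the values as deposited gave 4 risen and 1 fallen at 18 h.

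**Figure D1:**
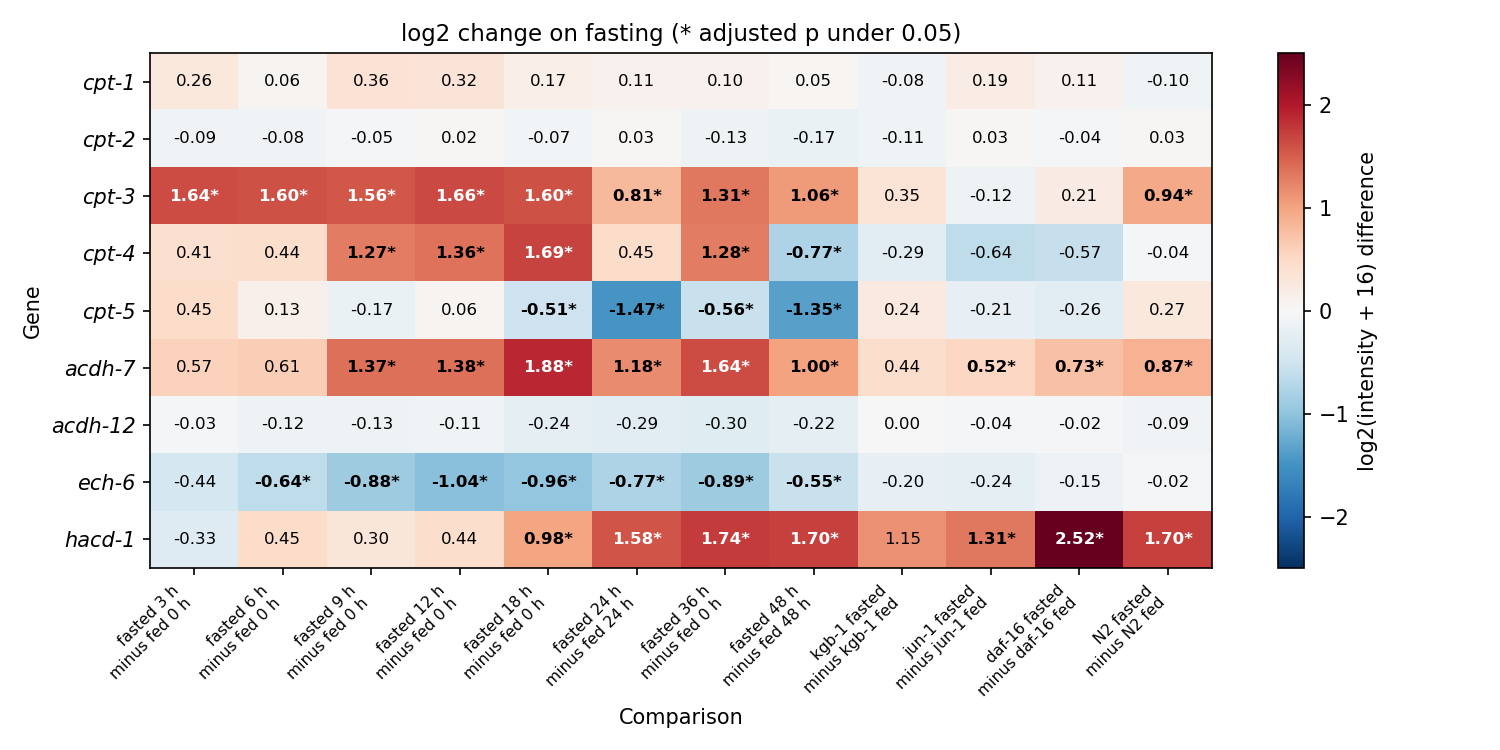
Each cell gives the log2 change of 1 gene (rows) in 1 comparison of fasted with fed worms (columns), coloured from blue (lower in fasted worms) to red (higher), with an asterisk where the adjusted p is under 0.05. The row of cpt-3 is called at all 8 times of the time course and in N2 of the mutant set (0.94), and the row of hacd-1 reaches 2.52 in daf-16 mutants.

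The canonical pair of the carnitine shuttle, cpt-1 at the outer membrane and cpt-2 at the inner, was called at no fasting time with quantile normalization. Over the 8 fasted groups cpt-1 had values of 570 to 879, against 590 to 745 in the 6 fed arrays of the time course. For cpt-2 the fasted arrays had 597 to 838 and the fed arrays 665 to 794. Over all times the ranges overlapped, and the 4 fasted arrays of cpt-2 at 36 and 48 h were below all of its fed ones. Both fasted arrays of cpt-1 at 3 h (749 and 857) and at 9 h (780 and 824) were above all of its fed ones. Against fed 0 h worms cpt-1 changed by 0.36 at 9 h (adjusted p = 0.115) and by 0.32 at 12 h (adjusted p = 0.121). At 48 h the log2 change of cpt-1 was 0.05 ± 0.13 (95% interval -0.24 to 0.33, adjusted p = 0.84) and that of cpt-2 was -0.17 ± 0.14 (-0.47 to 0.12, adjusted p = 0.394). These intervals limit any change at 48 h, and they do not show that the levels were equal. With arrays centred on their median, cpt-2 was lower at 36 h (-0.50, adjusted p = 0.0184) and at 48 h (-0.48, adjusted p = 0.0298). In the mutant set neither gene passed the test in any comparison.

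The gene cpt-3, a further member of the carnitine palmitoyltransferase family, was the only 1 of the 9 called at 3 h in this fit. It was high at every fasting time. Its fasted arrays had 136 and 126 after 3 h, 138 and 116 after 6 h, 132 and 141 after 9 h, 237 and 103 after 12 h, 148 and 178 after 18 h, 152 and 63 after 24 h, 146 and 112 after 36 h, and 139 and 115 after 48 h. Its fed arrays had 29.8 and 39.7 (0 h), 38.6 and 48.8 (24 h), and 37 and 46.3 (48 h). Every fasted array was above every fed one, and the second fasted array at 24 h was the lowest of the fasted. The log2 change was already 1.64 ± 0.30 at 3 h (adjusted p = 0.0074), 1.66 ± 0.30 at 12 h (adjusted p = 0.00121), 0.81 ± 0.30 at 24 h (adjusted p = 0.0464) and 1.06 ± 0.30 at 48 h (adjusted p = 0.0124). No difference was detected between 12 and 3 h (0.02 ± 0.30). Without 1 array the call was lost at 3 h (fed replicate 1, 1.52, adjusted p = 0.111; fasted replicate 1, 1.61, 0.0746; fasted replicate 2, 1.67, 0.068) and at 6 h (fed replicate 1, 1.49, 0.0749; fasted replicate 1, 1.48, 0.0669). At 24 h fasted replicate 1 (0.32, 0.489), fed replicate 1 (0.70, 0.20) and fed replicate 2 (0.93, 0.0886) each decided the call (also lost with an offset of 50, 0.58, 0.0675, and with no intensity trend, 0.0565), as did fed replicate 1 (0.95, 0.0911) and fasted replicate 1 (0.92, 0.0929) at 48 h, while the calls at 9, 12, 18 and 36 h held without any 1 array. At 48 h the change was 1.29 with an offset of 1 and 0.75 with an offset of 50.

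**Figure D2:**
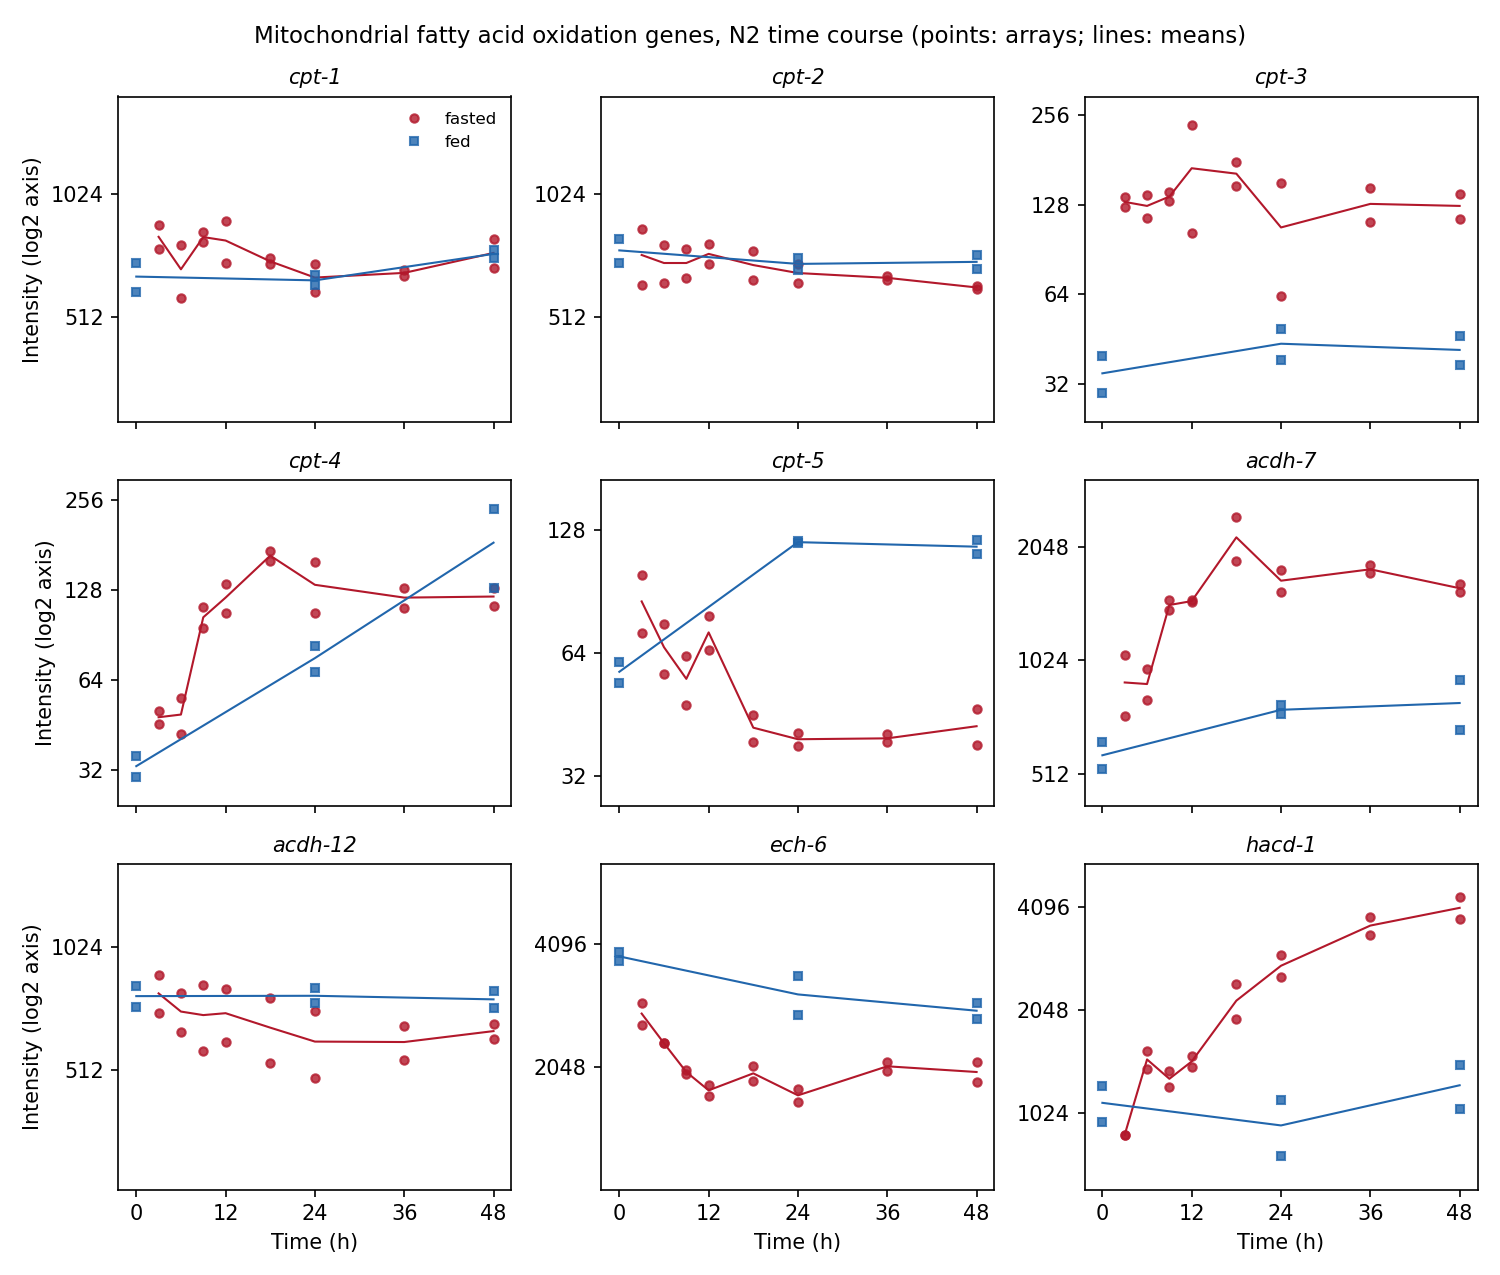
Intensity on a log2 axis is plotted against time in hours for the 9 genes, with red circles for fasted arrays, blue squares for fed arrays and lines through the means of 2 arrays. The fasted arrays of cpt-3 (63 to 237) lie above all fed arrays, hacd-1 climbs to 3780 and 4390 at 48 h, and the fed arrays of cpt-4 and cpt-5 are higher at 24 and 48 h than at 0 h.

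The carnitine palmitoyltransferase relative cpt-4 rose during fasting, and it also rose with age in fed worms. Its fasted arrays had 45.5 and 50.4 after 3 h, 42.3 and 55.6 after 6 h, 95.1 and 112 after 9 h, 134 and 107 after 12 h, 173 and 160 after 18 h, 159 and 107 after 24 h, 111 and 130 after 36 h, and 113 and 130 after 48 h. Its fed arrays had 30.3 and 35.5 (0 h), 68.1 and 83.1 (24 h), and 130 and 238 (48 h). The fasted level climbed until 18 h and was lower afterwards, while the fed level was higher at each later age. Against fed worms of 0 h the log2 change was 1.27 ± 0.20 at 9 h (adjusted p = 0.000487), 1.69 ± 0.20 at 18 h (adjusted p = 7.33e-06) and 1.28 ± 0.20 at 36 h (adjusted p = 6.79e-05). Against fed age-matched worms the change was 0.45 ± 0.20 at 24 h (adjusted p = 0.0913) and -0.77 ± 0.20 at 48 h (adjusted p = 0.00684). The change at 24 h was called with the values as deposited (0.68, adjusted p = 0.0268) and with the replicate number as a block (adjusted p = 0.0461). The opposite signs at 36 and 48 h thus stand beside different fed groups, and the test of the 48 h response against the 24 h response gave -1.21 ± 0.28 (adjusted p = 0.399). The fall at 48 h was not called without fed replicate 2 (-0.41, adjusted p = 0.136) or fasted replicate 1 (-0.69, adjusted p = 0.0574) or with the values as deposited (-0.49, adjusted p = 0.106) or all 46 arrays in 1 fit (-0.73, 0.122). Its second, dimmer probe set was higher at 18 h (0.84, adjusted p = 0.00086) and lower at 48 h (-0.59, adjusted p = 0.0138).

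Fasted worms did not show the high level of cpt-5, another gene of that family, that fed worms had on the later days. Its fasted arrays had 99.5 and 71.7 after 3 h, 75.4 and 56.9 after 6 h, 63 and 47.7 after 9 h, 78.8 and 65 after 12 h, 45.2 and 38.9 after 18 h, 40.9 and 37.9 after 24 h, 40.5 and 38.7 after 36 h, and 46.7 and 38.1 after 48 h. Its fed arrays had 61 and 54.2 (0 h), 119.3 and 120 (24 h), and 112 and 121 (48 h). From 18 h on, all fasted arrays were below all fed arrays of any age. The log2 change was -1.47 ± 0.17 at 24 h (adjusted p = 1.31e-05) and -1.35 ± 0.17 at 48 h (adjusted p = 2.39e-05) with fed worms of equal age as reference. The smaller changes of -0.51 ± 0.17 at 18 h (adjusted p = 0.0284) and -0.56 ± 0.17 at 36 h (adjusted p = 0.0141) were set against fed worms of 0 h. The calls at 24 and 48 h held without any 1 array. The smaller ones did not. That at 18 h was lost without fed replicate 1 (-0.37, adjusted p = 0.201) or fasted replicate 2 (-0.40, adjusted p = 0.192) or with the values as deposited (-0.34, 0.0926) or all 46 arrays in 1 fit (-0.50, 0.0893). That at 36 h was lost without fed replicate 1 (-0.43, adjusted p = 0.126) or fasted replicate 2 (-0.53, adjusted p = 0.0782).

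In fed worms alone, 2 of the 9 genes rose and none fell between 0 and 24 h, where 0.457% of all probe sets were called, and again between 0 and 48 h, where 1.78% were called. These were cpt-4 and cpt-5 both times. The fed day 4 N2 worms of the mutant set did not have the high levels of the fed 48 h worms, which were also day 4 adults: they had 98.4, 55.9 and 38 for cpt-4, against 130 and 238 in the time course, and 48, 47.1 and 30.8 for cpt-5, against 112 and 121. For cpt-5 all 3 of these arrays were below the fed 0 h arrays of the time course. The sets were normalized separately, and this difference between them was not tested. For cpt-4 the log2 change was 1.00 ± 0.20 at 24 h (adjusted p = 0.0258) and 2.02 ± 0.20 at 48 h (adjusted p = 3.79e-05). For cpt-5 it was 0.91 ± 0.17 (adjusted p = 0.0204) and 0.81 ± 0.17 (adjusted p = 0.0202). The rise of cpt-4 at 48 h was called without any 1 array. At 24 h both calls, and at 48 h that of cpt-5, were lost whichever of the 4 arrays was left out. Without fed 0 h replicates 1 and 2 and fed 24 h replicates 1 and 2 in turn, cpt-4 changed by 0.96, 1.06, 1.12 and 0.90 (adjusted p 0.264, 0.0989, 0.102 and 0.315). In the same order cpt-5 changed by 1.05, 0.78, 0.90 and 0.93 (adjusted p 0.0622, 0.191, 0.212 and 0.161). For cpt-5 at 48 h, leaving out fed 0 h replicates 1 and 2 and fed 48 h replicates 1 and 2 in turn gave 0.94, 0.67, 0.83 and 0.79 (adjusted p 0.0509, 0.186, 0.108 and 0.175). The call of cpt-4 at 24 h was also lost with arrays centred on their median (0.86, adjusted p = 0.103), an offset of 50 (0.68, 0.0852), the values as deposited (0.90, 0.121), its other probe set (0.35, 0.932) and all 46 arrays in 1 fit (0.99, 0.774). The last of these ended both calls of cpt-5 (0.86, 0.142, and 0.76, 0.141). With arrays centred on their median the split at 48 h was 2 risen and 1 fallen, the fallen gene being ech-6 (-0.50, adjusted p = 0.0418).

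The acyl-CoA dehydrogenases, which open each round of the cycle, did not behave as 1 group. The medium-chain type enzyme gene acdh-7 had 728 and 1060 after 3 h, 802 and 969 after 6 h, 1390 and 1480 after 9 h, 1460 and 1480 after 12 h, 1880 and 2460 after 18 h, 1780 and 1550 after 24 h, 1830 and 1740 after 36 h, and 1630 and 1550 after 48 h in fasted worms. In fed worms it had 526 and 620 (0 h), 777 and 736 (24 h), and 667 and 910 (48 h). From 9 h on every fasted array was above every fed one. Its log2 change was 0.61 ± 0.19 at 6 h (adjusted p = 0.155), 1.37 ± 0.19 at 9 h (adjusted p = 0.000201), 1.88 ± 0.19 at 18 h (adjusted p = 2.22e-06), 1.18 ± 0.19 at 24 h (adjusted p = 0.000218) and 1.00 ± 0.19 at 48 h (adjusted p = 0.000809). With the replicate number as a block the change at 6 h was called (adjusted p = 0.0288). The calls from 9 h on held without any 1 array, and the second probe set of acdh-7 was called at the same 6 times, with 1.92 at 18 h and 0.88 at 48 h. By contrast acdh-12, a relative of the very long-chain enzyme, had 488 to 871 in the 16 fasted arrays and 725 to 821 in the 6 fed arrays. Its largest change was -0.30 ± 0.20 at 36 h (95% interval -0.73 to 0.13, adjusted p = 0.268). Its fasted arrays lay below the fed ones at 24, 36 and 48 h, and with arrays centred on their median acdh-12 was called at 36 h (-0.66, adjusted p = 0.0257). It was also called at 36 h with the replicate number as a block (-0.30, adjusted p = 0.0455).

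The enoyl-CoA hydratase gene ech-6, whose product adds water in the second step of the cycle and is also known from the propionate breakdown route of worms, fell. In fasted worms it had 2600 and 2930 after 3 h, 2340 and 2340 after 6 h, 1970 and 2010 after 9 h, 1740 and 1850 after 12 h, 1890 and 2060 after 18 h, 1680 and 1810 after 24 h, 2000 and 2110 after 36 h, and 1880 and 2100 after 48 h. In fed worms it had 3920 and 3710 (0 h), 3420 and 2740 (24 h), and 2680 and 2940 (48 h). From 6 h on each fasted array was below all fed arrays, and the level varied little from 9 h on. The log2 change was -0.64 ± 0.13 at 6 h (adjusted p = 0.0112), -1.04 ± 0.13 at 12 h (adjusted p = 4.74e-05), -0.77 ± 0.13 at 24 h (adjusted p = 0.000278) and -0.55 ± 0.13 at 48 h (adjusted p = 0.00394). The gene was not called at 3 h (adjusted p = 0.176), where arrays centred on their median gave -0.51 (adjusted p = 0.0492). The call at 6 h was lost without fed replicate 1 (-0.57, adjusted p = 0.129), fasted replicate 1 (-0.66, 0.0569) or fasted replicate 2 (-0.61, 0.121) or with all 46 arrays in 1 fit (-0.62, 0.121), and the later calls held without any 1 array.

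The gene hacd-1, for an enzyme of the third step, rose late and was still higher at 36 h than at 12 h. In fasted worms it had 884 and 886 after 3 h, 1380 and 1560 after 6 h, 1220 and 1360 after 9 h, 1400 and 1500 after 12 h, 2440 and 1930 after 18 h, 2560 and 2970 after 24 h, 3840 and 3410 after 36 h, and 3780 and 4390 after 48 h. In fed worms it had 964 and 1230 (0 h), 1120 and 764 (24 h), and 1420 and 1050 (48 h). From 18 h on the fasted arrays were above all fed ones, while at 3 h they were below both fed arrays of 0 h. Its log2 change was -0.33 ± 0.21 at 3 h (adjusted p = 1), 0.98 ± 0.21 at 18 h (adjusted p = 0.00129), 1.58 ± 0.21 at 24 h (adjusted p = 3.72e-05), 1.74 ± 0.21 at 36 h (adjusted p = 6.21e-06) and 1.70 ± 0.21 at 48 h (adjusted p = 1.74e-05), the last a 3.24-fold difference. All 4 calls held without any 1 array.

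Steps within fasting were tested directly. Between 12 and 3 h, 3 of the 9 genes rose and 1 fell, where 10.4% of all probe sets were called. At 12 h cpt-4 by 0.95 ± 0.20 (adjusted p = 0.00644), acdh-7 by 0.81 ± 0.19 (adjusted p = 0.0141) and hacd-1 by 0.77 ± 0.21 (adjusted p = 0.0259) were higher, and ech-6 fell by 0.60 ± 0.13 (adjusted p = 0.00823). None of these 4 calls held without each array in turn. Without fasted 3 h replicate 1, cpt-4 changed by 0.91 (adjusted p = 0.0503), acdh-7 by 0.50 (0.162) and hacd-1 by 0.73 (0.125). Without fasted 3 h replicate 2 hacd-1 changed by 0.82 (0.0823) and ech-6 by -0.51 (0.0744), and without fasted 12 h replicate 1 ech-6 changed by -0.51 (0.0581). Without fasted 12 h replicate 2 acdh-7 changed by 0.76 (0.114) and hacd-1 by 0.67 (0.189). With all 46 arrays in 1 fit only acdh-7 stayed called (cpt-4 0.91, adjusted p = 0.147; hacd-1 0.79, 0.242; ech-6 -0.58, 0.0746). Median centring ended the call of hacd-1 (0.53, 0.0545) and the other probe set that of acdh-7 (0.59, 0.0547). Between 36 and 12 h, 1 gene rose and 1 fell, where 12.5% of all probe sets were called. These were hacd-1, with 1.3 ± 0.21 (adjusted p = 0.00109, held without any 1 array), and cpt-5, with -0.63 ± 0.17 (adjusted p = 0.024). The change of cpt-5 was not called without 12 h replicate 1 (-0.52, adjusted p = 0.155), 12 h replicate 2 (-0.73, 0.0527), 36 h replicate 1 (-0.65, 0.0916) or 36 h replicate 2 (-0.59, 0.141), nor with all 46 arrays in 1 fit (-0.62, 0.111). Between the 48 h response and the 24 h response, limma called none of the 9 genes and 0.0399% of all probe sets. At an unadjusted p under 0.05, for which no share of all probe sets was counted, there was 1 lower, cpt-4. Without fed 48 h replicate 1 the difference of cpt-4 was -1.57.

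In N2 worms of the mutant set, 3 of the 9 genes rose on fasting and none fell, where 5.57% of all probe sets were called. They were again cpt-3, acdh-7 and hacd-1. Fasted N2 worms had 94.6, 90.6 and 98.9 for cpt-3, against 40.6, 35 and 32.7 in fed N2 worms, a change of 0.94 ± 0.18 (adjusted p = 0.00166). Fasted N2 worms had 1540, 1350 and 1400 for acdh-7, against 812, 728 and 707 in fed N2 worms, a change of 0.87 ± 0.14 (adjusted p = 0.000347). For hacd-1 the fasted N2 arrays had 2850, 4640 and 3650 and the fed ones 1160, 805 and 1190, a change of 1.70 ± 0.30 (adjusted p = 0.00107). In all 3 genes the groups did not overlap, which is no test, and the calls held without any 1 array. The fall of ech-6 and cpt-5 seen in the time course did not appear here. Fasted N2 worms had 2140, 2440 and 2750 for ech-6, against 2120, 2550 and 2340 in fed N2 worms (-0.02 ± 0.17, adjusted p = 0.983). They had 58.2, 63.8 and 48.9 for cpt-5, against 48, 47.1 and 30.8 (0.27 ± 0.19, adjusted p = 0.557). The members' median change was 0.03, against -0.01 over all probe sets. The gene cpt-4 changed by -0.04 ± 0.29 (adjusted p = 0.972), cpt-1 by -0.10 ± 0.18 (0.878), cpt-2 by 0.03 ± 0.15 (0.967) and acdh-12 by -0.09 ± 0.18 (0.885).

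**Figure D3:**
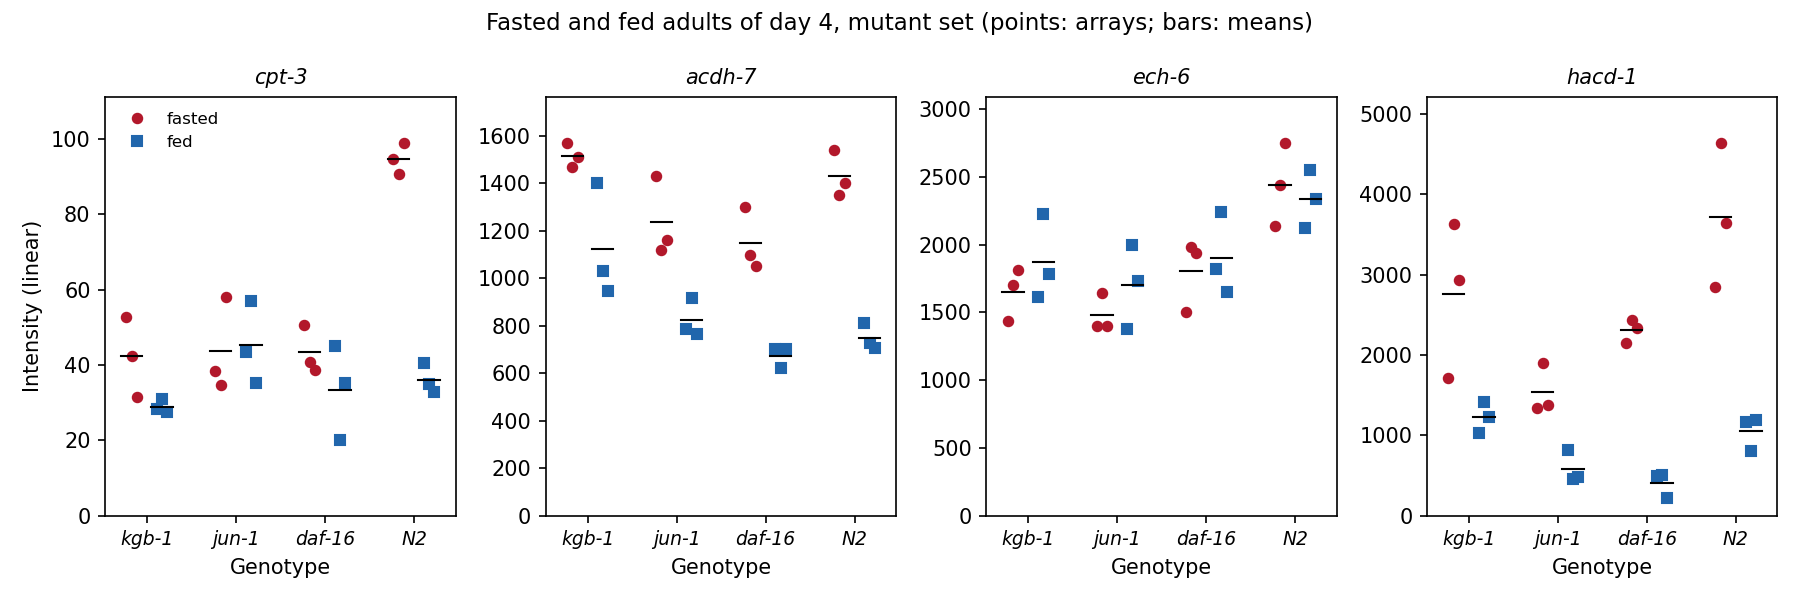
Linear intensity of cpt-3, acdh-7, ech-6 and hacd-1 is shown for fasted (red circles) and fed (blue squares) worms of each genotype, 3 arrays per group, with a bar at the mean. For cpt-3 only fasted N2 worms reach 90.6 to 98.9, all other groups lying at or below 58.1, and for hacd-1 the fasted arrays of every genotype lie above the fed arrays of that genotype.

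In kgb-1 mutants limma called none of the 9 genes on fasting, where 1.00% of all probe sets were called. At an unadjusted p under 0.05, 2 were higher, and the share of all probe sets at that threshold was not counted. For hacd-1, fasted kgb-1 worms had 1710, 3630 and 2940, against 1030, 1420 and 1230 in fed kgb-1 worms, which do not overlap. The change was 1.15 ± 0.30 (adjusted p = 0.0898), and with the replicate number as a block it was called (adjusted p = 0.0397), as it was without fasted replicate 1 (1.51, adjusted p = 0.014). For acdh-7, fasted kgb-1 worms had 1570, 1470 and 1510, against 1400, 1030 and 945 in fed ones (0.44 ± 0.14, adjusted p = 0.246). For cpt-3, fasted kgb-1 worms had 52.7, 42.5 and 31.6, against 28.4, 31 and 27.4 (0.35 ± 0.18, adjusted p = 0.946). In each of these 3 genes the lowest fasted array was above the highest fed one, for cpt-3 only by 31.6 against 31. The share of all probe sets that separate in this way was not counted, so this is no test.

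In jun-1 mutants 2 genes rose and none fell, where 2.95% of all probe sets were called. Fasted jun-1 worms had 1340, 1900 and 1380 for hacd-1, against 816, 456 and 482 in fed jun-1 worms (1.31 ± 0.30, adjusted p = 0.015). They had 1430, 1120 and 1160 for acdh-7, against 788, 916 and 766 (0.52 ± 0.14, adjusted p = 0.043). Neither pair of groups overlapped, which is no test. For cpt-3 the fasted jun-1 arrays, 38.5, 34.7 and 58.1, overlapped the fed ones, 43.4, 56.9 and 35.2 (-0.12 ± 0.18, adjusted p = 0.869). The call of hacd-1 was lost without fed replicate 2 (1.09, adjusted p = 0.106), fed replicate 3 (1.32, 0.0585) or fasted replicate 2 (1.16, 0.109). That of acdh-7 was lost without fasted replicate 1 (0.40, 0.214) or 3 (0.55, 0.0701), or without fed replicate 1 (0.45, 0.128), 2 (0.54, 0.0897) or 3 (0.56, 0.069), its second probe set gave 0.17 (adjusted p = 0.792), and median centring gave 0.50 (0.166). The second probe set of cpt-4 fell (-0.73, adjusted p = 0.0231), where the brighter one gave -0.64 ± 0.29 (adjusted p = 0.365).

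In daf-16 mutants the same number rose, 2, and none fell, where 4.68% of all probe sets were called. Fasted daf-16 worms had 2150, 2440 and 2340 for hacd-1, against 495, 506 and 219 in fed daf-16 worms, a change of 2.52 ± 0.30 or 5.72-fold (adjusted p = 1.15e-05). They had 1300, 1100 and 1050 for acdh-7, against 700, 622 and 700 in fed ones (0.73 ± 0.14, adjusted p = 0.00195). Groups did not overlap in either gene, again no test. For cpt-3 the fasted daf-16 arrays, 50.5, 40.9 and 38.7, overlapped the fed ones, 45.1, 20 and 35.2 (0.21 ± 0.18, adjusted p = 0.708). Both calls held without any 1 array. The 3 arrays of the mutant set that correlated least with their replicates were all of daf-16 worms, and without them acdh-7 gave 0.68 (adjusted p = 0.0928).

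Whether the response differed between a mutant and N2 was tested as an interaction, and the 3 tests share the 6 N2 arrays. In limma none of the 9 genes was called for kgb-1 (0.0310% of all probe sets called), jun-1 (0.177%) or daf-16 (0.111%). The share of all probe sets at an unadjusted p under 0.05 was not counted. At that threshold 2 genes were lower for kgb-1, 1 for jun-1 and 1 for daf-16, and none was higher. The gene cpt-3 was among them each time, with a difference in response of -0.59 ± 0.25 for kgb-1 (95% interval -1.11 to -0.07, adjusted p = 1), -1.06 ± 0.25 for jun-1 (-1.58 to -0.54, adjusted p = 0.12) and -0.73 ± 0.25 for daf-16 (-1.24 to -0.21, adjusted p = 0.764). With the replicate number as a block, the difference for jun-1 was called (-1.06, adjusted p = 0.0368). For hacd-1 the differences were -0.55 ± 0.43 (-1.45 to 0.34), -0.39 ± 0.43 (-1.28 to 0.50) and 0.81 ± 0.43 (-0.08 to 1.70) in the same order of mutants, each with an adjusted p of 1. For acdh-7 they were -0.43 ± 0.20 (-0.84 to -0.02), -0.35 ± 0.20 (-0.76 to 0.06) and -0.14 ± 0.20 (-0.55 to 0.27), likewise with an adjusted p of 1. A call of hacd-1 or acdh-7 in 1 genotype and not in another is therefore not shown to be a difference between them.

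Levels were also compared within 1 diet. Among fasted worms cpt-3 was lower in all 3 mutants than in N2, by -0.79 ± 0.18 in kgb-1 (adjusted p = 0.0197), -0.74 ± 0.18 in jun-1 (adjusted p = 0.0159) and -0.79 ± 0.18 in daf-16 worms (adjusted p = 0.0135). The 3 comparisons share the 3 fasted N2 arrays, which had 90.6 to 98.9 and were above all 9 fasted mutant arrays. Called members numbered 1 lower for kgb-1 (1.39% of all probe sets called), 3 lower for jun-1 (3.67%) and 1 lower for daf-16 (2.10%), and none was higher. The call of cpt-3 was lost for kgb-1 without N2 replicate 2 (-0.81, adjusted p = 0.0731), N2 replicate 3 (-0.76, 0.109), kgb-1 replicate 2 (-0.80, 0.0633) or kgb-1 replicate 3 (-0.65, 0.171). It was lost for jun-1 without N2 replicate 3 (-0.72, 0.0766), jun-1 replicate 1 (-0.70, 0.064) or jun-1 replicate 2 (-0.64, 0.111), and for daf-16 without N2 replicate 3 (-0.77, 0.0668), daf-16 replicate 2 (-0.73, 0.0685) or daf-16 replicate 3 (-0.75, 0.0759).

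Fasted jun-1 worms also had less hacd-1 and ech-6 RNA signal than fasted N2 worms. For hacd-1 the jun-1 arrays had 1340 to 1900 and the N2 arrays 2850 to 4640 (-1.19 ± 0.30, adjusted p = 0.0265). For ech-6 the fasted jun-1 arrays had 1400, 1640 and 1400, against 2140, 2440 and 2750 in fasted N2 worms (-0.64 ± 0.17, adjusted p = 0.032). The groups did not overlap in either gene, though the share of all probe sets that separate so was not counted. The call of hacd-1 was lost without N2 replicate 2 (-1.03, adjusted p = 0.146), N2 replicate 3 (-1.2, 0.0967), jun-1 replicate 1 (-1.11, 0.0942) or jun-1 replicate 3 (-1.12, 0.0908). That of ech-6 was lost without N2 replicate 2 (-0.64, 0.093), N2 replicate 3 (-0.55, 0.185), jun-1 replicate 1 (-0.61, 0.0955), jun-1 replicate 2 (-0.70, 0.059) or jun-1 replicate 3 (-0.60, 0.0997), and with arrays centred on their median (-0.51, 0.0676), where the median of all probe sets moved to 0.17. For fasted kgb-1 worms ech-6, with 1440, 1700 and 1810, gave -0.58 ± 0.17 (adjusted p = 0.108), and with the replicate number as a block it was called (adjusted p = 0.00557).

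Some intestine markers were lower in the same comparisons of fasted mutants with fasted N2 worms. Of 8 measured, 1 was called lower in kgb-1 worms (act-5, -1.39 ± 0.32, adjusted p = 0.0233), where 1.39% of all probe sets were called. In jun-1 worms (3.67% of all called) 2 were lower (ges-1, -2.27 ± 0.31, adjusted p = 9.5e-05, and asp-1, -1.46 ± 0.30, adjusted p = 0.00571). In daf-16 worms (2.10%) 2 were lower (ges-1, -2.06 ± 0.31, adjusted p = 0.000339, and act-5, -1.21 ± 0.32, adjusted p = 0.0472). None was called higher. By contrast asp-1 changed by 0.20 ± 0.30 in kgb-1 and 0.81 ± 0.30 in daf-16 worms (adjusted p = 0.996 and 0.287). The median change of the list was -0.42 in kgb-1, -0.79 in jun-1 and -0.54 in daf-16 worms. Of these markers, ges-1, act-5 and asp-1 were named after their values were seen. Summed intensity was 3315 to 5268 in fasted kgb-1, 1735 to 2289 in fasted jun-1 and 3567 to 8387 in fasted daf-16 worms, and 4123 to 5986 in fasted N2 worms, so that only the jun-1 arrays lay wholly below N2. In these sums asp-1 alone averaged 2820 in kgb-1, 785 in jun-1, 4330 in daf-16 and 2320 in N2 worms. The intestinal factor gene elt-2 was not called in any of the 3 (-0.18 ± 0.22, -0.32 ± 0.22 and 0.14 ± 0.22 in the same order of mutants). No body muscle, hypodermis or neuron marker was called, and of 18 germline markers 1 was higher in jun-1 worms. The part of these marker levels in the lower cpt-3, hacd-1 and ech-6 signals was not tested.

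Among fed worms limma called no member for kgb-1 against N2 (1.90% of all probe sets called), none for jun-1 (1.36%) and 1, lower, for daf-16 (0.435%). At an unadjusted p under 0.05 there were 1 higher and 1 lower for kgb-1, 1 higher and 2 lower for jun-1, and 1 higher and 1 lower for daf-16. The share of all probe sets at that threshold was not counted. The call for daf-16 was hacd-1: fed daf-16 worms had 495, 506 and 219 against 1160, 805 and 1190 in fed N2 worms, which do not overlap (-1.44 ± 0.30, adjusted p = 0.0294). It was lost without N2 replicate 1 (-1.42, adjusted p = 0.109), N2 replicate 2 (-1.58, 0.0501), N2 replicate 3 (-1.31, 0.202) or daf-16 replicate 3 (-1.08, 0.238). With the replicate number as a block, acdh-7 was called higher in fed kgb-1 than in fed N2 worms (0.45, adjusted p = 0.0369, against 0.121 without the block). Likewise cpt-4, with 99.2, 183 and 121 in fed jun-1 and 98.4, 55.9 and 38 in fed N2 worms, was called with the block (1.16, adjusted p = 0.0188) and not without it (adjusted p = 0.054). It was also called without N2 replicate 1 (1.44, 0.015) or jun-1 replicate 1 (1.36, 0.0439).

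Across groups hacd-1 had the widest range of the 9 genes in both sets. It spanned 2.22 on the log2 scale in the time course, lowest at 3 h and highest at 48 h of fasting, and 3.14 in the mutant set, lowest in fed daf-16 and highest in fasted N2 worms. Next in the time course came cpt-4 (2.02) and acdh-7 (1.88), and cpt-2 (0.27) had the narrowest range. Over the 11 group means of the time course, acdh-7 and ech-6 ran in opposite directions (Pearson's r = -0.94), as did hacd-1 and acdh-12 (r = -0.92). Over the 8 group means of the mutant set the same pairs had r = -0.37 and 0.04, so neither relation was as close there. The pair of acdh-7 and hacd-1 had r = 0.76 over the 11 groups and 0.90 over the 8. These values describe groups that share their arrays and are no test. By the same measure over the 11 groups, the genes most like hacd-1 among probe sets with a mean of at least 100 were emb-5 (r = 0.987), rgl-1 (0.985) and F44G4.1 (0.981). Over the 8 groups of the mutant set, which had no part in that choice, their r with hacd-1 was 0.664, -0.27 and 0.92. The genes most like acdh-7 were ttr-50 (0.989), fbxc-29 (0.987) and skr-21 (0.987), with 0.963, 0.878 and 0.857 in the mutant set. For cpt-4 they were T19B10.2 (0.949), F26G1.2 (0.937) and H34I24.2 (0.937), with 0.538, 0.687 and 0.286 in the mutant set.

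A list of 30 other genes of the pathway, of which 28 were measured, also moved both ways. At 48 h 6 rose and 2 fell, where 30.1% of all probe sets were called, so the list lay near that share, with a median change of 0.05, against -0.02 over all probe sets. The acyl-CoA synthetase gene acs-2, whose enzyme activates fatty acids and which is known to be induced in fasted worms, averaged 2190 ± 782 in fasted and 145 ± 59.5 in fed worms at 48 h (SD, n = 2 each; 3.64 ± 0.35, adjusted p = 1.82e-06). B0272.3, a hydroxyacyl-CoA dehydrogenase (0.50 ± 0.14, adjusted p = 0.0113), and the carnitine palmitoyltransferase relative cpt-6 (0.70 ± 0.20, adjusted p = 0.0116) also rose. The acyl-CoA dehydrogenase genes acdh-1 (-1.29 ± 0.25, adjusted p = 0.000963), known from propionate breakdown, and acdh-13 (-0.66 ± 0.16, adjusted p = 0.00519) fell. The list had 2 risen and none fallen at 3 h (1.12% of all probe sets called), 4 risen and 1 fallen at 9 h (9.65%), and 9 risen and 5 fallen at 18 h (36.6%). Like cpt-3, acs-2 was higher already at 3 h, by 2.18 ± 0.35 (adjusted p = 0.00269).

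**Figure D4:**
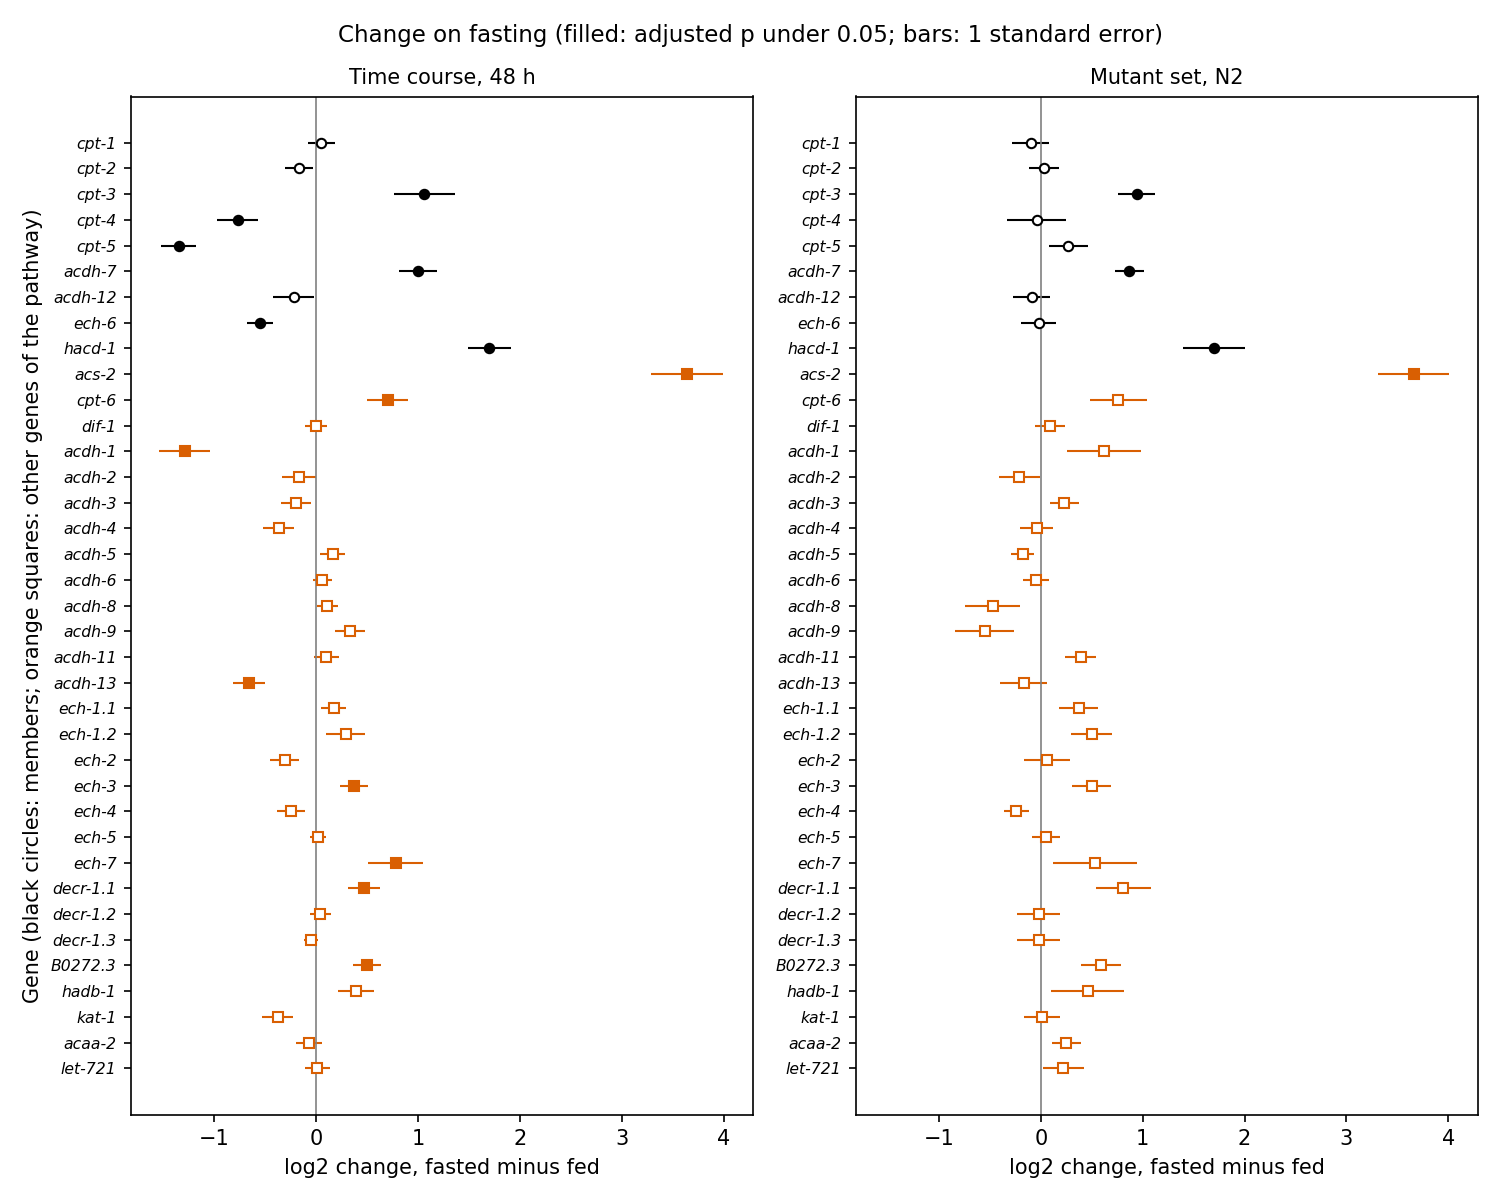
Points give the log2 change of fasted minus fed worms and bars 1 standard error, for the 9 members (black circles) and 28 other genes of the pathway (orange squares), at 48 h of the time course and in N2 of the mutant set, with filled symbols where the adjusted p is under 0.05. The value of acs-2 lies farthest to the right in both panels (3.64 and 3.66), and open symbols near 0 make up most of both panels.

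In N2 of the mutant set, where 5.57% of all probe sets were called, acs-2 was the 1 gene of that list called (3.66 ± 0.35, adjusted p = 6.18e-07), and the list's median change was 0.15, against -0.01 over all probe sets. It rose in fasted kgb-1 (1.68 ± 0.35, adjusted p = 0.0147), jun-1 (2.13 ± 0.35, adjusted p = 0.000622) and daf-16 worms (3.32 ± 0.35, adjusted p = 2.28e-06) too. Its mean was 1880 ± 164 in fasted kgb-1 and 600 ± 108 in fed kgb-1 worms, while fed N2 worms had 180 ± 93.6 (SD, n = 3 each). Fed kgb-1 worms were thus higher than fed N2 worms (1.68 ± 0.35, adjusted p = 0.0112). No other gene of the list rose in a mutant. In jun-1 worms, where 2.95% of all probe sets were called, 1 fell (acdh-1, -1.77 ± 0.36, adjusted p = 0.00561). In daf-16 worms (4.68% of all called) 1 fell (acdh-2, -0.73 ± 0.20, adjusted p = 0.0427). Both were named after their values were seen. Also named after its values were seen, acdh-1 was lower in fasted kgb-1 (-1.77 ± 0.36, adjusted p = 0.0111), jun-1 (-3.16 ± 0.36, adjusted p = 1.43e-05) and daf-16 worms (-2.61 ± 0.36, adjusted p = 0.000129) than in fasted N2 worms. With acdh-1 counted, 1 of the 28 was lower in kgb-1 (1.39% of all probe sets called), 2 in jun-1 (3.67%) and 2 in daf-16 worms (2.10%). None of the 28 genes was called in any of the 3 interactions, where acs-2 gave -1.98 ± 0.50 for kgb-1 (adjusted p = 0.424), -1.52 ± 0.50 for jun-1 (adjusted p = 0.573) and -0.34 ± 0.50 for daf-16 (adjusted p = 1). Of 6 regulators of lipid genes, the nuclear receptor gene nhr-49 (0.43 ± 0.13, adjusted p = 0.0181) and sbp-1, for the worm SREBP factor (0.64 ± 0.18, adjusted p = 0.0154), rose at 48 h. The nuclear receptor gene nhr-13 fell (-0.43 ± 0.14, adjusted p = 0.026), and none was called in N2 of the mutant set.

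Markers of cell types are given for the same arrays, and at 48 h their counts stand beside 30.1% of all probe sets called. At 48 h 11 of 18 germline markers fell and none rose, and their summed intensity was 19582 to 22177 in fasted and 31114 to 34570 in fed arrays. The meiotic gene him-3 fell by 0.92 ± 0.14 (adjusted p = 0.000128). Of 8 measured intestine markers 2 rose and 3 fell (summed 7648 to 9196 in fasted and 10377 to 10762 in fed arrays), and elt-2, for the intestinal GATA factor, changed by 0.62 ± 0.30 (adjusted p = 0.144). Of 10 hypodermis markers 2 rose and 4 fell (4160 to 5797 in fasted and 10037 to 10316 in fed arrays). Of 10 body muscle markers 2 rose and 2 fell (2868 to 2921 in fasted and 2920 to 3204 in fed arrays), with the myosin gene unc-54 at -0.47 ± 0.27 (adjusted p = 0.214). Of 12 neuron markers 2 rose (4872 to 5290 in fasted and 3450 to 3866 in fed arrays). In N2 of the mutant set (5.57% of all called) no germline marker was called (21633 to 25756 in fasted and 25192 to 29880 in fed arrays), 2 intestine markers fell (4123 to 5986 in fasted and 11026 to 14092 in fed arrays), and unc-54 changed by -1.63 ± 0.63 (adjusted p = 0.162). In the intestine sum asp-1 alone averaged 2320 in fasted and 8300 in fed arrays, and at 48 h of the time course 4920 and 6680. In N2 of the mutant set the intestine list had a median change of -0.94, while ges-1 (0.35 ± 0.31), elt-7 (0.35 ± 0.20) and elt-2 (0.01 ± 0.22) were not called. The part of these shifts in the changes of the fatty acid oxidation genes was not tested.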

How the data were processed

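Of 46 C. elegans arrays, 22 form the time course and 24 the mutant set, with total RNA prepared with Trizol and biotinylated cRNA made from 100 ng by the 2-cycle assay, per the labels' protocols. The authors summarised each probe set of an array with PLIER, per the submitters' processing notes, and deposited the result as a linear intensity. Its version, normalization and the array's build are not given in the sources used here. The smallest deposited value was 16.0003 and no detection calls were used.

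Of 22625 probe sets, 77 controls were left out. The annotation table gave 20766 of the 22548 tested 1 symbol, 887 several, and did not list 895. Values were taken as log2(intensity + 16) and quantile normalized within each set, which removes differences in overall level between arrays. limma 3.58.1 in R 4.3.3 (lmFit, then eBayes with an intensity trend) was fitted to each set with 1 coefficient per group, 2-sided, in 26 comparisons. The fits were tested on simulated data. How many arrays a group has limits the precision.

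All members were named in every comparison, and other probe sets of a member where they disagreed. Of the other pathway genes and the 6 lipid regulators, acs-2 and up to 3 risen and 3 fallen called genes by adjusted p were named for 48 h, for N2 of the mutant set and for each interaction. Markers were summarised by list, with elt-2, unc-54 and him-3 named, and the 3 members of widest range were matched to the genes most like them. The members and lists were chosen with earlier results of these data known.

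The labels number the replicates. In the mutant set, arrays with the same number deviated together from the means of their groups (correlation 0.16 to 0.74 within every comparison of 2 groups), and 24 of 24 arrays correlated best with one of their own number. This was read as pairing, also in the kgb-1 and jun-1 interactions (lowest 0.15), but not in the daf-16 interaction (lowest 0.07). The main values of both sets nonetheless come from the fit without a replicate block, and calls that the block changed are given beside them or in the closing section. Alternatives were offsets of 1 and 50, values as deposited, median centring, brighter probe sets, no trend, all arrays in 1 fit, the replicate block, other probe sets, each array left out and the 3 least correlated arrays left out.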

Additional observations from a re-analysis of the deposited data

How the results depend on the processing

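Of 57 called values of members, 32 stayed called with the same sign in every alternative that tested them, and no value reversed. Among 3539 values of single genes under alternatives, 100 lost a call, 25 gained one and 92 that were not called moved by more than their standard error. The 3539 include the alternative with other probe sets, which exist for acdh-7 and cpt-4 only. There the values of all other members repeat the main fit and could not change. Numbers of called members that moved by over 1.5 times were as follows. Centring on the median gave 2 at 3 h, 1 for fed 24 h and 1 for jun-1 fasting. All 46 arrays in 1 fit gave 1 at 6 h, 0 for fed 24 h, 1 for fed 48 h, 1 for 12 against 3 h, 1 for 36 against 12 h, 1 for kgb-1 fasting, 1 for fed jun-1 against N2 and 2 for fasted kgb-1 against N2. Testing only probe sets above the median intensity of a set, which left out cpt-5 in the time course and cpt-3, cpt-4 and cpt-5 in the mutant set, gave 1 for fed 24 h, 1 for fed 48 h, 1 for 36 against 12 h and 0 for fasted kgb-1 and daf-16 against N2. An offset of 50 gave 1 for fed 24 h and 1 for fed jun-1 against N2. The other probe sets gave 1 and the values as deposited gave 1 for fed 24 h. Without the 3 arrays least correlated with their replicates there was 1 for jun-1 fasting, 1 for daf-16 fasting, 1 for fed jun-1 and 0 for fasted daf-16 against N2. With only the brighter probe sets, the genes missing from these counts were cpt-5 in the time course and cpt-3 in the mutant set. They were left out there and lost no call. The cause of the other shifts was not tested.

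With the replicate block in the mutant set, 1 member was called for kgb-1 fasting, 1 for the jun-1 interaction, 1 each for fed kgb-1 and fed jun-1 against N2 and 2 for fasted kgb-1 against N2, and the block changed no other call there. In the time course, 22 of 22 arrays correlated best with their own number (0.29 to 0.64), with 2 numbers only. The block there added calls of acdh-7 at 6 h (0.61, adjusted p = 0.0288), cpt-4 at 24 h (0.45, 0.0461), acdh-12 at 36 h (-0.30, 0.0455) and cpt-5 for 12 against 3 h (-0.38, 0.0264).

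Leaving out 1 array in turn gave 0 to 1 called members at 3 h, 0 to 2 at 6 h, 4 at 9 and 12 h, and 5 to 6 both at 18 h and 36 h. For 24 h it was 4 to 5, for 48 h 4 to 6. It gave 0 for fed 24 h, 1 for fed 48 h, 1 to 3 for 12 against 3 h, 1 for 36 against 12 h and 0 to 1 for the 48 h response against the 24 h response. In the mutant set it gave 3 for N2, 0 to 1 for kgb-1, 0 to 1 for jun-1 and 2 for daf-16, 0 in each interaction, 0 for fed kgb-1, 0 to 1 for fed jun-1, 0 to 1 for fed daf-16, 0 to 1 for fasted kgb-1, 0 to 3 for fasted jun-1 and 0 to 1 for fasted daf-16 against N2. With 2 arrays per group, a lone array was taken to vary like those of the other groups. The changes of the dim genes cpt-3, cpt-4 and cpt-5 moved in size with the offset, while their signs held where called.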
